A study of Mus musculus with 12 samples.

Results

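Cyclin-dependent kinase (CDK) inhibitors are small proteins that hold the kinases driving the cell cycle in check. The mouse genes for them are 7: Cdkn1a, Cdkn1b and Cdkn1c, whose products p21, p27 and p57 form the Cip/Kip family, and Cdkn2a, Cdkn2b, Cdkn2c and Cdkn2d, whose products form the Ink4 family. Members were taken by gene identity, through the transcript that the array files name for each probe, and no measured value entered the choice. The 7 genes have 8 probes among 41174 on the array, which cover 17016 named genes. Of these 8 probes, 7 from 6 genes passed the filter on dim probes, and the Cdkn1c probe did not.

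Ink4 proteins bind CDK4 and CDK6 and keep the D-type cyclins from activating them, so that the retinoblastoma protein stays unphosphorylated and E2F factors stay silent. Cip/Kip proteins act later, mainly on CDK2 bound to cyclin E or A. Fibroblasts that touch their neighbours on all sides stop dividing, which is called contact inhibition, and p27, p16 and p15 are inhibitors long tied to that arrest in cultured cells. Much of the control of p27 acts on the protein, through degradation by the ubiquitin ligase that uses Skp2, and is not visible in messenger RNA.

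Messenger RNA came from 12 cultures of mouse embryonic fibroblasts, 1 array each. The knockout (KO) line lacks focal adhesion kinase (FAK, encoded by Ptk2), a tyrosine kinase of integrin adhesions, and the rescue line is a single clone, DA2, of FAK-null cells given FAK again. The groups were KO dense, KO sparse, rescue dense and rescue sparse, with 3 cultures each from 3 experimental days, where dense means 8200000 and sparse 410000 cells seeded in a 10 cm dish 24 h before harvest. Both lines grew in the same basal medium with serum, but hygromycin B and non-essential amino acids were given to the rescue line alone, so that line and medium cannot be told apart. No measure of cell cycle phase, protein or kinase activity was used here.

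Per array, the median signal of the spots ranged from 18.8 to 80.1 intensity units, and 23152 to 26183 probes stood well above background. The number of arrays, 3 per group, limits the precision. Values below are log2 processed signals relative to the 75th percentile of their array; a difference of 1 is a change of 2-fold, and levels are compared within a probe only. A probe was called changed at an adjusted p under 0.05, by limma with Benjamini-Hochberg adjustment over 25931 probes. Of 10 fibroblast markers, 8 were well above background on all arrays of every group, and Thy1 and Fap were not. Of 6 leukocyte markers, Csf1r and Cd3e were well above background on all 12 arrays, Cd79a on 8, Adgre1 on 2, Itgam on 1 and Ptprc on 0. Of 5 endothelial markers, Vwf was on 6 arrays, Kdr and Tek on 3 each, Cdh5 on 1 and Pecam1 on 0. Of 4 muscle markers, Des and Actc1 were on all 12, Myod1 on 4 and Myog on 3. Their part in the results was not tested.

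For Ptk2 itself, the brighter probe did not differ between the lines (-0.07 ± 0.18 in KO dense minus rescue dense and -0.11 ± 0.18 in KO sparse minus rescue sparse, SE). The dimmer probe was lower in KO cells, by -0.93 ± 0.31 when dense (adjusted p = 0.0210) and by -2.08 ± 0.31 when sparse (adjusted p = 0.000167). Where on the transcript either probe lies was not at hand, so neither checks the deletion.

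A conflict in the deposited data bears on everything that follows. In the deposited value table, the 4 columns of day 3 followed the scanner arrays of the other line on that day (correlation of probe deviations 0.917 to 0.965) and ran against the arrays of their own label (-0.586 to -0.347). The other 8 columns followed their own arrays (0.902 to 0.979). Used as labelled, that table gave no call for any member by limma, with 1 member probe at an unadjusted p under 0.05 in KO density and 0 in the other comparisons. Among the scanner arrays, those of the same group correlated at 0.982 to 0.992, day 3 included. Cdkn2b, for example, read 2.31 in KO dense cells on day 3, against 2.09 and 2.07 on days 1 and 2. In rescue dense cells it read 5.63 on day 3, against 5.63 and 6.00. How the conflict arose was not tested. The scanner files were used as labelled, and member calls lost without the arrays of day 3 are named where they stand, as are those of named list genes and the larger shifts in list counts.

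Scaling also decides signs. The spike-in RNA averaged 10.28 to 10.96 log2 units on the KO dense arrays and 12.23 to 12.49 on the KO sparse arrays, against 10.76 to 11.45 on the rescue dense and 11.06 to 11.70 on the rescue sparse arrays. Scaling to it instead of the 75th percentile adds the same amount to every probe of a comparison: 3.07 to KO dense minus KO sparse, 0.72 to rescue dense minus rescue sparse, 0.80 to KO dense minus rescue dense, -1.55 to KO sparse minus rescue sparse and 2.35 to the interaction, which is the density response in KO minus that in rescue. All changes below are relative to the bulk of the probes of their arrays, and on the spike-in scale every KO density value named below is positive, those of Cdk6, Myc, Ankrd1 and Ccn2 included. Spike-in scaling called 99.3% of all probes in KO density and 81.1% in the interaction, against 12% and 17.7% as reported. Normexp background correction, an alternative used below, called 0.15% and 1.99% of all probes there, so calls of most genes were lost under it.

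**Figure D1:**
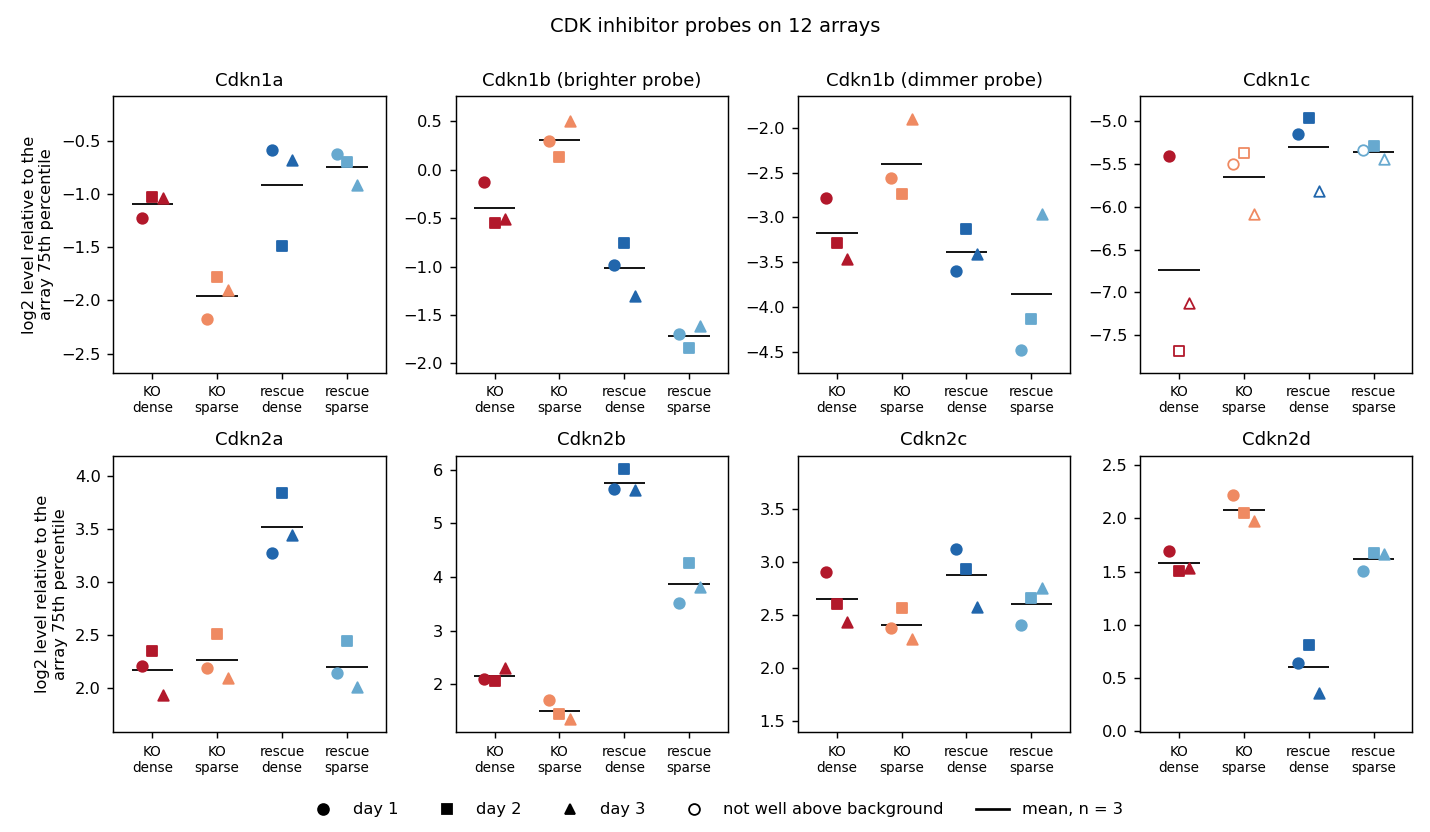
Log2 level of each CDK inhibitor probe on the 12 arrays, relative to the array 75th percentile, by group (KO dense, KO sparse, rescue dense, rescue sparse), with 1 point per culture, shaped by day, and the mean as a line. The vertical scale differs between panels; Cdkn2b in rescue dense cells lies between 5.63 and 6.00, above all other groups, and open points mark arrays where the probe was not well above background.

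In rescue cells, dense seeding went with higher messages of the neighbouring Ink4 genes Cdkn2b and Cdkn2a and of Cdkn1b, and with a lower message of Cdkn2d, on the 75th percentile scale. In KO cells Cdkn2a, Cdkn2b and Cdkn2d were not called with density on that scale. Cdkn1a was called higher and Cdkn1b lower in dense KO cells, and these KO calls were lost under many other settings. Of 7 probes, 2 were called in KO dense against KO sparse cells, 1 in each direction, where 12% of all probes were called (4.22% higher and 7.75% lower). In rescue dense against rescue sparse cells 4 of 7 were called, 3 higher and 1 lower, where 35.2% of all probes were called (16.4% higher and 18.8% lower). The 2 density responses differed for 3 of 7 probes, all lower in KO, where 17.7% of all probes were called (8.54% higher and 9.11% lower). The groups did not overlap for 5 of 7 probes in KO (38.1% of all probes) and for 4 of 7 in rescue (47.7%). In bulk RNA, fewer cells making a message and less message per cell cannot be told apart.

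Cdkn2b encodes p15Ink4b, an Ink4 inhibitor best known as a target of TGF-beta signalling. Its probe (A_52_P498241) read 2.09, 2.07 and 2.31 in KO dense cells on days 1 to 3, 1.70, 1.45 and 1.36 in KO sparse cells, 5.63, 6.00 and 5.63 in rescue dense cells, and 3.52, 4.26 and 3.81 in rescue sparse cells. All rescue arrays lay above all KO arrays, and within each line the dense arrays lay above the sparse ones.

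Dense rescue cells had 3.70-fold more Cdkn2b message than sparse ones (log2 fold change 1.89 ± 0.22 SE, adjusted p = 7.78e-05), with day differences of 2.11, 1.74 and 1.81. In KO cells the response was 0.65 ± 0.22 and missed the threshold (adjusted p = 0.0737). It passed narrowly under quantile scaling (0.0482), under median scaling (0.0449), with the slide as a random block (0.0474) and with an intensity trend in the variance (0.0427). The difference between the responses was -1.24 ± 0.31 (adjusted p = 0.0183). That difference lost its call under normexp background correction (adjusted p = 0.218) and median scaling (0.0889). Without day 3 it was -1.42 and not called (0.0915), from fewer arrays. Spike-in scaling turned it to 1.11 (0.112).

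Between the lines, Cdkn2b was the member with the widest gap. KO dense cells had 12.1-fold less than rescue dense cells (-3.60 ± 0.22, adjusted p = 6.19e-08), and KO sparse cells 5.15-fold less than rescue sparse cells (-2.36 ± 0.22, adjusted p = 3.28e-06). On slide 3, the single slide that carried both lines, the differences were -3.94 and -2.82. Both calls held under spike-in scaling.

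Cdkn2a lies next to Cdkn2b and is unusual in giving 2 unrelated proteins from separate starts: p16Ink4a, an Ink4 inhibitor, and p19Arf, which stabilises p53 through Mdm2. The array has a single probe for the gene (A_51_P144813, printed 10 times), and the transcript that it detects could not be settled, so its values are for the gene. It read 2.21, 2.35 and 1.94 in KO dense cells, 2.19, 2.51 and 2.09 in KO sparse cells, 3.27, 3.83 and 3.45 in rescue dense cells, and 2.15, 2.44 and 2.01 in rescue sparse cells. The 3 rescue dense arrays stood above the other 9, which overlapped with each other.

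Dense rescue cells had 2.49-fold more Cdkn2a message than sparse ones (1.32 ± 0.21, adjusted p = 0.000698), with day differences of 1.13, 1.39 and 1.43. The KO response was -0.10 ± 0.21 (adjusted p = 0.806), with a 95% interval of -0.57 to 0.37. The responses differed by -1.42 ± 0.30 (adjusted p = 0.00919), a call lost under normexp (0.0874). Without day 3 the difference was -1.33 and not called (0.0823), from fewer arrays, and spike-in scaling turned it to 0.93 (0.197). The lines differed when dense (KO minus rescue -1.35 ± 0.21, adjusted p = 0.000197) and not detectably when sparse (0.07 ± 0.21, adjusted p = 0.822), where the interval was -0.40 to 0.53. On slide 3 the dense difference was -1.48 and the sparse one 0.07, and spike-in scaling lowered the dense one to -0.55 (adjusted p = 0.341). Under spike-in scaling the sparse difference became -1.48 and the KO density response 2.97, both called.

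Cdkn2a and Cdkn2b sit on the same strand of chromosome 4 and share their rise with density in rescue cells, so the 300 bases around their starts are shown (RefSeq, GRCm38.p6, 250 before to 50 after the start, 5′ to 3′ on the gene's strand), with that of Cdkn1b, which was called in opposite directions in the 2 lines on the 75th percentile scale. Capitals mark the GC box bound by Sp1 (GGGCGG) and the E2F motif (TTTNNCGC), searched on both strands with no overlap between them.
Cdkn2b, chr4:89310983-89311282, minus strand: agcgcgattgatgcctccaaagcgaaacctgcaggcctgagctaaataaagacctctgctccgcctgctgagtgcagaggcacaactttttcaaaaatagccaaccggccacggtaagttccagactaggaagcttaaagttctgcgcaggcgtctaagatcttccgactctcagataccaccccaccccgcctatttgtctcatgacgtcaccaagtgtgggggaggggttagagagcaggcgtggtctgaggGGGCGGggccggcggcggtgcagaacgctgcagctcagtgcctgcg
Cdkn2a upstream start, chr4:89294570-89294869, minus strand: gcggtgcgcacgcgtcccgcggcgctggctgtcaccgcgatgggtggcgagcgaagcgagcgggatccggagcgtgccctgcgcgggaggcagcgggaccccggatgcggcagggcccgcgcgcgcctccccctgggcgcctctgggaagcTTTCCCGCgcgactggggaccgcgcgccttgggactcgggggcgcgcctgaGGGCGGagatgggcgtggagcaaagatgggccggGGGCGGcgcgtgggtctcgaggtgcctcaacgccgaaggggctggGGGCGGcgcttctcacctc
Cdkn2a downstream start, chr4:89282143-89282442, minus strand: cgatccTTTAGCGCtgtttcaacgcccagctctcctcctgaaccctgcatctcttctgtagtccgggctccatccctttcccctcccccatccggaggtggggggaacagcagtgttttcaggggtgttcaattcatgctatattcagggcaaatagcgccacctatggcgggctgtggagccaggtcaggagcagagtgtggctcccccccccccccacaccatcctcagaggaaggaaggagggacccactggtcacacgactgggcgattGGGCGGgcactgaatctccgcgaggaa
Cdkn1b, chr6:134920151-134920450, plus strand: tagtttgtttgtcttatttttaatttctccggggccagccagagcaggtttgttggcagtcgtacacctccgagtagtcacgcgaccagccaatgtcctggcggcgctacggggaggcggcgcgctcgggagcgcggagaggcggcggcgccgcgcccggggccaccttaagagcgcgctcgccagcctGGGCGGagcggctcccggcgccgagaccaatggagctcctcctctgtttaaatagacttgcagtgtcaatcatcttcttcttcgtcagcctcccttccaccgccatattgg

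The upstream Cdkn2a start, used for Arf, held 3 GC boxes and 1 E2F motif, which began at position -99 relative to the start. The downstream start, used for p16Ink4a, held 1 of each, with the E2F motif at -244. Cdkn2b and Cdkn1b had 1 GC box each and no E2F motif. Of the members not shown, Cdkn2d had 5 GC boxes, Cdkn2c 4 and 0 at its 2 starts, and Cdkn1a 0 and 2. None of these starts held the E2F motif, so GC boxes were not particular to the genes shown. Among 32851 mouse promoters of this length, 35.7% held a GC box and 5.17% the E2F motif. Neither the FOXO motif GTAAACA (3.65% of promoters), the AP-1 motif TGANTCA (7.81%), the TEAD motif GGAATG (14.7%) nor TATAAA (13.6%) occurred in any of the 9 promoters found for 6 member genes. A letter match is a description and not a binding site.

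Cdkn1b encodes p27Kip1, the Cip/Kip inhibitor that accumulates in resting fibroblasts. Its brighter probe (A_51_P169173, printed 10 times) read -0.12, -0.55 and -0.50 in KO dense cells, 0.29, 0.13 and 0.51 in KO sparse cells, -0.98, -0.76 and -1.30 in rescue dense cells, and -1.69, -1.84 and -1.61 in rescue sparse cells. The 4 groups did not overlap, with KO sparse the highest and rescue sparse the lowest.

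The message was 1.63-fold lower in dense than in sparse KO cells (-0.70 ± 0.20, adjusted p = 0.0439) and 1.63-fold higher in dense than in sparse rescue cells (0.70 ± 0.20, adjusted p = 0.0185). The responses differed by -1.40 ± 0.29 (adjusted p = 0.00713), and the difference kept its call without day 3 but not under normexp (0.142), and spike-in scaling turned it to 0.94 (0.169). The KO response was not called with the day as a replicate block (adjusted p = 0.0514), with the slide as a block (0.0745), under normexp (0.544), under median scaling (0.261), without day 3 (0.188) or when 8 of the 12 arrays were left out in turn (0.0560 to 0.154), which were KO dense 2 and 3, all KO sparse, rescue dense 1 and rescue sparse 1 and 2, and spike-in scaling turned it to 2.37. The rescue response was not called under normexp (0.182), nor when rescue dense replicate 1, rescue dense replicate 2 or rescue sparse replicate 2 was left out (0.0522 to 0.0678).

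Between the lines, KO sparse cells had 4.07-fold more Cdkn1b message than rescue sparse cells (2.03 ± 0.20, adjusted p = 6.62e-06), with 1.97 on slide 3. Spike-in scaling lowered the sparse gap to 0.48 and ended its call (adjusted p = 0.344). KO dense cells had 1.54-fold more than rescue dense cells (0.62 ± 0.20, adjusted p = 0.0199). That smaller gap was 0.21 on slide 3, and it was not called with the slide as a block (0.39, adjusted p = 0.329), under normexp (0.134), without day 3 (0.0890), under median scaling (0.0634), with only the 2 groups compared (0.0505), without KO dense replicate 1 (0.0734) or without rescue dense replicate 3 (0.0770).

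The dimmer Cdkn1b probe (A_52_P673863) had the same sign as the brighter one in each of the 5 comparisons. It was called in KO sparse against rescue sparse cells alone (1.46 ± 0.37, adjusted p = 0.00686), a call lost with the slide as a block (1.25, adjusted p = 0.0998) and under normexp (0.150). Its interaction was -1.26 ± 0.52 (adjusted p = 0.120). Rescue sparse replicate 3 read -2.96 on it, against -4.48 and -4.13 on the other rescue sparse arrays, and without that array the interaction was -1.71 (adjusted p = 0.0186).

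**Figure D2:**
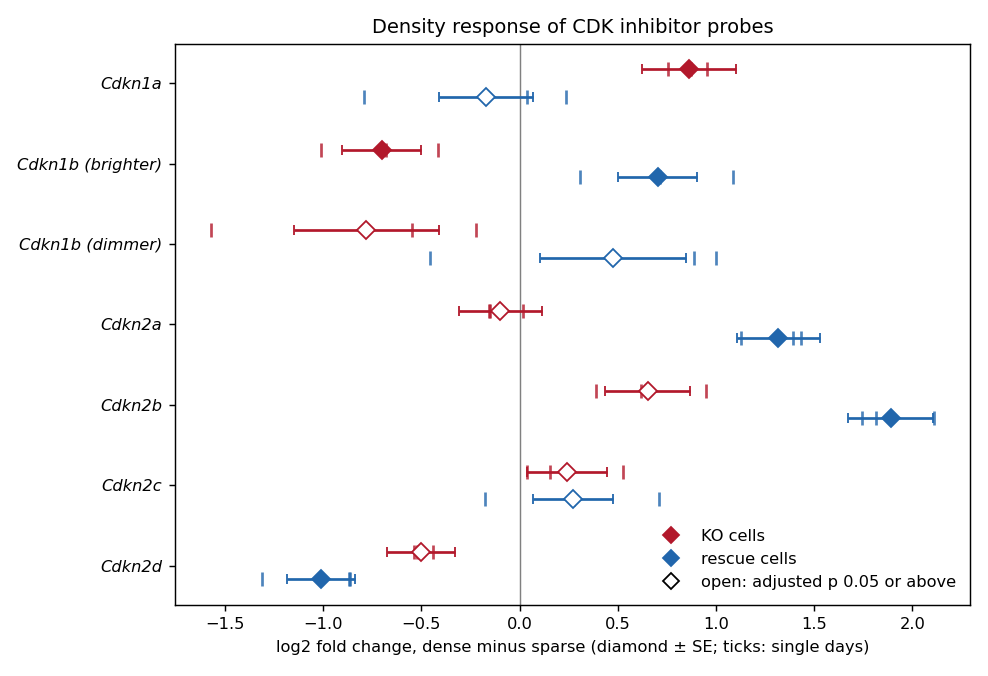
Log2 fold change of dense minus sparse cells for each tested CDK inhibitor probe, in KO cells and in rescue cells; diamonds are the fitted values with SE, filled where the adjusted p was under 0.05, and ticks are the differences on single days. Cdkn2b (1.89) and Cdkn2a (1.32) lie right of 0 in rescue cells, and the brighter Cdkn1b probe lies at -0.70 in KO and 0.70 in rescue cells; spike-in scaling would move all KO values right by 3.07 and turn Cdkn1b, Cdkn2a and Cdkn2d there.

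Cdkn1a encodes p21Cip1, the inhibitor that p53 induces after DNA damage. Its probe (A_51_P363947, printed 10 times) read -1.22, -1.02 and -1.03 in KO dense cells, -2.17, -1.78 and -1.90 in KO sparse cells, -0.58, -1.49 and -0.68 in rescue dense cells, and -0.62, -0.69 and -0.92 in rescue sparse cells. KO sparse cells lay below the other groups, and rescue dense replicate 2 stood apart from the other rescue arrays.

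KO sparse cells had 2.31-fold less Cdkn1a message than rescue sparse cells (-1.21 ± 0.24, adjusted p = 0.00145), with -1.09 on slide 3. The call was lost with the slide as a block (-0.83, adjusted p = 0.0914) and under normexp (-0.69, adjusted p = 0.0864). Dense KO and dense rescue cells had no detectable difference (-0.18 ± 0.24, adjusted p = 0.553, interval -0.70 to 0.35). With density the message rose 1.82-fold in KO cells (0.86 ± 0.24, adjusted p = 0.0388), with day differences of 0.96, 0.76 and 0.87. That call was lost with the day as a replicate block (adjusted p = 0.0505), with the slide as a block (0.0515), under normexp (0.624), without day 3 (0.161) without any single KO array (0.0583 to 0.130) and without rescue sparse replicate 1 or 2 (up to 0.0530). In rescue cells the response was -0.17 ± 0.24 (adjusted p = 0.608).

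The difference of the Cdkn1a responses was 1.03 ± 0.34 and just missed the threshold (adjusted p = 0.0557). It passed under quantile scaling (0.0376), under median scaling (0.0472), with the slide as a random block (0.0382) and without rescue dense replicate 1 (0.0413). It also passed with an intensity trend in the variance (0.0459), with 1 probe per gene (0.0453) and with probes well above background on all 12 arrays (0.0385). Spike-in scaling raised it to 3.38 (adjusted p = 0.000294).

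Cdkn2d encodes p19Ink4d, an Ink4 inhibitor whose message is known to vary over the cell cycle. Its probe (A_51_P122356) read 1.70, 1.51 and 1.53 in KO dense cells, 2.22, 2.05 and 1.98 in KO sparse cells, 0.64, 0.81 and 0.36 in rescue dense cells, and 1.50, 1.67 and 1.67 in rescue sparse cells. Rescue dense cells were the lowest group and KO sparse cells the highest, without overlap.

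Cdkn2d was thus the Ink4 member that fell with density: dense rescue cells had 2.02-fold less than sparse ones (-1.01 ± 0.17, adjusted p = 0.000974), and spike-in scaling reduced this to -0.29 (adjusted p = 0.678). In KO cells the response was -0.50 ± 0.17 (adjusted p = 0.0829), and the difference between the responses was 0.51 ± 0.24 (adjusted p = 0.172). KO dense cells had 1.97-fold more than rescue dense cells (0.98 ± 0.17, adjusted p = 0.000455), with 0.70 on slide 3. KO sparse cells had 1.38-fold more than rescue sparse cells (0.47 ± 0.17, adjusted p = 0.0433). The sparse call was lost under median scaling (0.17, adjusted p = 0.585), with the slide as a block (0.28, adjusted p = 0.423), under normexp (0.12, adjusted p = 0.709), without day 3 (adjusted p = 0.0678) and when 9 of the 12 arrays were left out in turn, and spike-in scaling turned it to -1.08.

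Cdkn2c encodes p18Ink4c, the remaining Ink4 inhibitor. Its probe (A_51_P513719) lay between 2.43 and 2.90 in KO dense cells, 2.28 and 2.56 in KO sparse cells, 2.58 and 3.12 in rescue dense cells, and 2.41 and 2.75 in rescue sparse cells. Rescue dense cells lay just above KO sparse cells, and the other pairs of groups overlapped. No comparison was called. The density response was 0.24 in KO cells (interval -0.21 to 0.69) and 0.27 in rescue cells (-0.18 to 0.72). KO minus rescue was -0.23 when dense (-0.68 to 0.22) and -0.20 when sparse (-0.65 to 0.25).

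Cdkn1c encodes p57Kip2 and is imprinted, with the maternal copy active. Its probe (A_51_P339540) was well above background on 4 of 12 arrays: 1 KO dense, 0 KO sparse, 2 rescue dense and 1 rescue sparse. Its level could therefore not be compared between the groups. Of its neighbours in the imprinted domain, 12 of 15 on the array passed the filter. Among these 12, 1 rose and 0 fell with density in KO cells (10.5% of all genes were called). In rescue cells 2 rose and 2 fell (38.1% of all genes). Spike-in scaling gave 12 and 0 in KO and 2 and 0 in rescue cells. Tspan32 was higher in dense than sparse cells in KO (1.12, adjusted p = 0.0128) and in rescue (1.70, adjusted p = 0.000275). Both calls were lost under normexp, and the KO call without day 3 (0.0723).

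**Figure D3:**
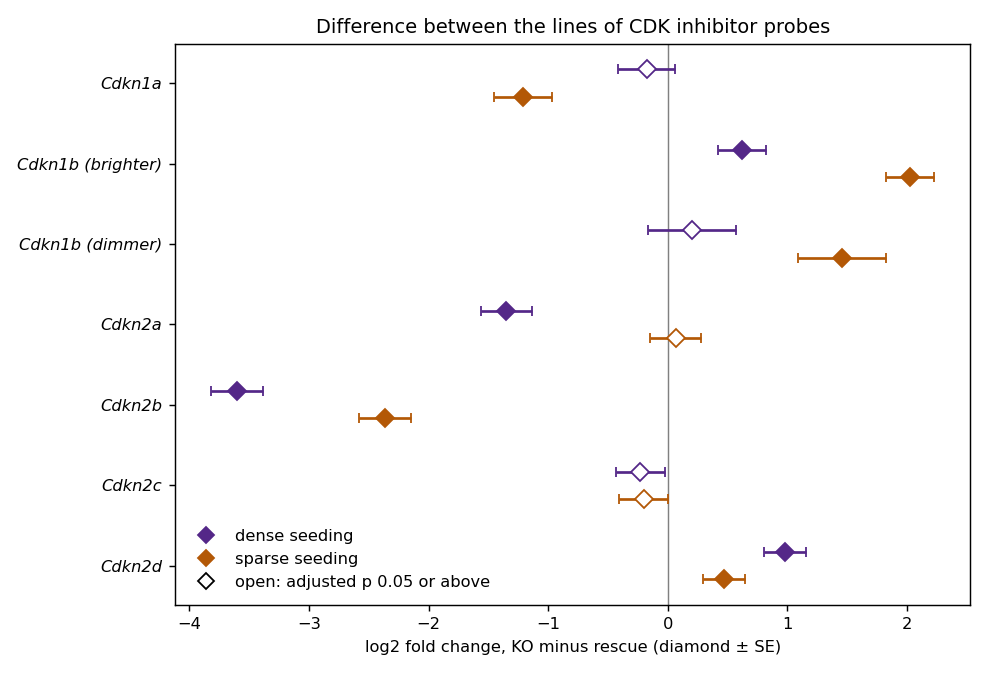
Log2 fold change of KO minus rescue cells for each tested CDK inhibitor probe, at dense and at sparse seeding, as fitted values with SE, filled where the adjusted p was under 0.05. Cdkn2b lies at -3.60 and -2.36; Cdkn2a departs from 0 at dense seeding (-1.35) and Cdkn1a at sparse seeding (-1.21), while spike-in scaling would move dense values right by 0.80 and sparse values left by 1.55, turning Cdkn1a and Cdkn2c at dense seeding and Cdkn2a, Cdkn2d and the dimmer Cdkn1b probe at sparse seeding.

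The Cip/Kip and Ink4 members were called in both directions between the lines. In KO dense against rescue dense cells 4 of 7 probes were called, 2 higher (Cdkn1b and Cdkn2d) and 2 lower (Cdkn2a and Cdkn2b), where 57.6% of all probes were called (30.2% higher and 27.4% lower). In KO sparse against rescue sparse cells 5 of 7 were called, 3 higher (both Cdkn1b probes and Cdkn2d) and 2 lower (Cdkn1a and Cdkn2b), where 47.0% of all probes were called (25.7% higher and 21.3% lower). The groups did not overlap for 4 of 7 probes when dense (64.3% of all probes) and 5 of 7 when sparse (57.7%). When dense, the share of members called is close to that of all probes. The summed level of 6 epithelial markers, led by keratin genes, was 6.73 and 7.04 in KO dense and KO sparse cells, against 0.69 and 2.45 in rescue dense and rescue sparse cells. That of 10 fibroblast markers was 8.42 and 8.47 in KO dense and KO sparse cells, against 10.36 and 10.36 in rescue dense and rescue sparse cells. Krt8, Krt14 and Krt18 were well above background on all 12 arrays, Epcam on 1 and Cdh1, a junction protein gene of epithelia, on 4 (0 KO dense, 0 KO sparse, 3 rescue dense, 1 rescue sparse). Their part in the differences between the lines was not tested.

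The genes on which the inhibitors act were read from lists, at 1 probe per gene and against the same over 12438 genes. In KO density 5.21% of those genes were called higher and 5.26% lower, in rescue density 18% and 20.0%, in KO dense against rescue dense cells 31.1% and 29.2%, in KO sparse against rescue sparse cells 22.5% and 24.9% (47.4% in all), and in the interaction 10.2% and 8.43%. Of 11 G1 and S cyclins and CDKs measured, 10 fell with density in rescue cells (median -2.18; 38.1% of all genes were called and their median was -0.08), and 6 fell under spike-in scaling. Ccne2 fell by 3.30 and Ccne1 by 2.85 on the log2 scale; both encode E-type cyclins of the G1/S transition. Cdk1, the mitotic kinase, fell by 2.62. In KO cells 1 of 11 was called (10.5% of all genes), Cdk6, a partner of D-type cyclins and target of Ink4 proteins, at -1.81 ± 0.24 (adjusted p = 0.00187), a call lost under normexp (0.0793). The responses differed for 7 of 11, all higher in KO (18.7% of all genes), led by Cdk1 at 2.96 ± 0.38 (adjusted p = 0.000661) and Ccne2 at 3.07 ± 0.59 (adjusted p = 0.00553), and for 4 of 11 without day 3.

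Pocket proteins, E2F factors and their targets, which lie below the inhibitors in the pathway, were read in the same way. In rescue cells 25 of 29 fell with density and 2 rose (median -1.56), where 38.1% of all genes were called. Spike-in scaling left 11 lower and 2 higher. Mybl2, a regulator of S and G2/M genes, changed by -3.86 ± 0.25 (adjusted p = 3.09e-06) and Cdc6, a factor that licenses replication origins, by -3.42 ± 0.24 (adjusted p = 5.22e-06). Rbl2, which encodes the p130 pocket protein of resting cells, rose by 1.05 ± 0.25 (adjusted p = 0.00660), and Rb1 by 1.02 ± 0.20 (adjusted p = 0.00242), both calls lost under normexp (0.472 for Rbl2 and 0.0835 for Rb1). In KO cells 2 of 29 were called, Rbl2 (0.92) and Rbl1 (0.90), both higher, where 10.5% of all genes were called. Both calls were lost under normexp and without day 3 (0.0534 for Rbl2 and 0.0840 for Rbl1), and all 29 were higher under spike-in scaling. The responses differed for 23 of 29, all higher in KO (median 2.01), where 18.7% of all genes were called. They differed for 11 under normexp and for 14 without day 3. Between dense cells of the lines, 25 of 29 were higher in KO and 1 lower (60.4% of all genes were called); the lower one was Rb1 (-1.82 ± 0.20, adjusted p = 1.21e-05), not called under spike-in scaling (-1.02, adjusted p = 0.0711).

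**Figure D4:**
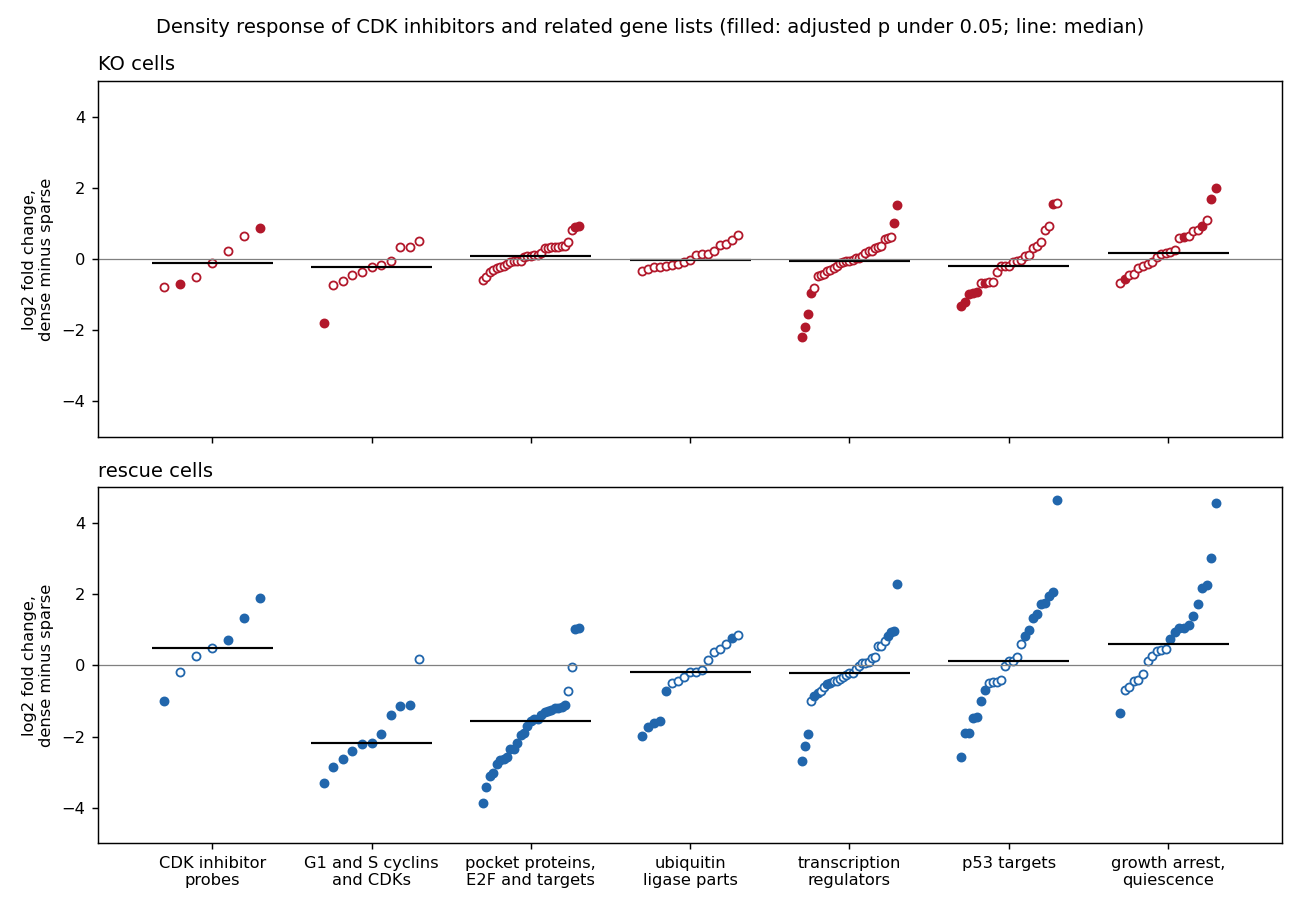
Log2 fold change of dense minus sparse cells in KO (top) and rescue cells (bottom) for the CDK inhibitor probes and for genes of 6 related lists, 1 point per probe or gene, ordered by value within a list, with the median as a line and filled points at an adjusted p under 0.05. In rescue cells 10 of 11 cyclins and CDKs and 25 of 29 pocket, E2F and target genes lie below 0 as called, against 1 and 0 in KO cells; under spike-in scaling every KO point would move up by 3.07 and every rescue point by 0.72.

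Parts of the ubiquitin ligases that degrade CDK inhibitors were read next. Skp2, the subunit that recognises p27, was lower in dense than in sparse rescue cells (-1.74 ± 0.25, adjusted p = 0.000349), and Dtl, which directs p21 to degradation, likewise (-1.60 ± 0.19, adjusted p = 9.16e-05). In KO cells Skp2 had a response of 0.53 ± 0.25 (adjusted p = 0.196), and the responses differed by 2.27 ± 0.36 (adjusted p = 0.00192). Of 17 parts, 0 were called with density in KO cells by limma (10.5% of all genes were called), with 1 at an unadjusted p under 0.05. All 17 were called higher under spike-in scaling, where 99.3% of all probes were called. In rescue cells 5 were lower and 1 higher, a share close to the 38.1% of all genes called. Under spike-in scaling 0 were lower and 3 higher there, with Skp2 at -1.02 (adjusted p = 0.141) and Dtl at -0.88 (adjusted p = 0.167).

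Among transcription regulators of these genes, Myc, which represses Cdkn1a and Cdkn2b, was lower in dense cells of both lines (-2.20 ± 0.37 in KO, adjusted p = 0.00461; -1.91 ± 0.37 in rescue, adjusted p = 0.00201), though the KO call was lost under normexp (0.0558) and both calls under spike-in scaling. The repressors of differentiation Id1 and Id2 fell with density in rescue cells, by 2.28 and 2.67 on the log2 scale. Egr1, an immediate early factor, was higher in dense rescue cells (2.28 ± 0.31, adjusted p = 0.000223), and its responses differed by -3.08 ± 0.44 (adjusted p = 0.00103), a call lost under spike-in scaling (-0.73, adjusted p = 0.332). Foxo3, an activator of Cdkn1b, was well above background on 1 KO dense, 0 KO sparse, 3 rescue dense and 2 rescue sparse arrays, too few for a fold change between the lines. Over the list of 31 measured regulators, 2 rose and 4 fell with density in KO cells (10.5% of all genes were called). In rescue cells 4 rose and 7 fell, a share close to the 38.1% of all genes called. The counts were 4 and 3 in KO under median scaling, 30 and 0 under spike-in scaling and 0 and 0 under normexp. In rescue cells they were 5 and 2 under spike-in scaling, 1 and 3 under normexp and 3 and 4 without day 3.

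The Ink4 locus is silenced by Polycomb proteins in young fibroblasts. Cbx7, a Polycomb reader of histone methylation, was not well above background on any KO array. It was at least 48.2-fold lower in KO dense than rescue dense cells (adjusted p = 3.89e-10) and at least 19.9-fold lower in KO sparse than rescue sparse cells (adjusted p = 1.81e-09), the second of which was not called under normexp (adjusted p = 0.0991). Ezh2, the Polycomb methyltransferase, was higher in KO cells, by 2.95 ± 0.26 when dense (adjusted p = 1.64e-06) and 2.21 ± 0.26 when sparse (adjusted p = 2.82e-05), where spike-in scaling ended the call (0.66, adjusted p = 0.199). Of 21 measured chromatin factors of the locus, 9 were higher and 4 lower in KO dense than rescue dense cells. In KO sparse against rescue sparse cells 7 were higher and 3 lower. These shares are close to those of all genes, of which 60.4% were called when dense and 47.4% when sparse. The sparse balance was 5 to 5 under median scaling and 0 higher to 13 lower under spike-in scaling. Mtap, the neighbour of Cdkn2a that encodes an enzyme of methionine salvage, was detected in all groups. It differed by -0.36 ± 0.18 between KO dense and rescue dense cells (adjusted p = 0.111) and by -1.15 ± 0.18 between KO sparse and rescue sparse cells (adjusted p = 0.000328). With density it had a value of -0.71 ± 0.18 in rescue cells (adjusted p = 0.0108), a call lost under normexp (0.0820), median scaling (0.0518) and without day 3 (0.0537), and spike-in scaling brought the value to 0.0081.

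Trp53, which encodes p53, differed by -0.12 ± 0.27 between KO dense and rescue dense cells (adjusted p = 0.731) and by -0.76 ± 0.27 between KO sparse and rescue sparse cells (adjusted p = 0.0395), a call lost under normexp (0.111), without day 3 (0.173) and in the fit blocked by slide (0.134). Whether either line makes working p53 was not tested, so the targets below are no readout of p53 activity. Of 25 measured p53 targets other than Cdkn1a, 1 rose and 6 fell with density in KO cells, and 9 rose and 7 fell in rescue cells. Of all genes, 10.5% were called in KO density and 38.1% in rescue density. The KO balance turned with the scaling, to 4 higher and 1 lower by the median and 25 and 0 by the spike-ins, and was 0 and 0 under normexp and 1 and 4 without day 3. Gadd45a, which also binds CDK1, was higher in dense rescue cells (2.06 ± 0.19, adjusted p = 2.14e-05), and Aen, a nuclease gene, was lower (-2.56 ± 0.20, adjusted p = 8.49e-06). Between the lines, 7 of the 25 targets were higher and 12 lower in KO dense than rescue dense cells. In sparse cells 6 were higher and 7 lower in KO. Of all genes, 60.4% were called when dense and 47.4% when sparse. Spike-in scaling gave 9 higher and 3 lower when dense, and 3 higher and 19 lower when sparse. Perp had the largest change of the list and was lower in KO cells at both densities (adjusted p = 4.39e-10 and 2.09e-09). Pmaip1, which encodes the pro-apoptotic protein Noxa, was higher in KO cells, by 3.49 ± 0.19 when dense (adjusted p = 2.58e-08) and by 6.11 ± 0.19 when sparse (adjusted p = 3.82e-10).

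Genes of growth arrest and quiescence were called in 12 of 22 cases in dense against sparse rescue cells (38.1% of all genes were called). Of these, 11 rose and 1 fell (median over the list 0.61). The counts were 11 and 0 under spike-in scaling and 7 and 1 under normexp. Gas1, a growth arrest gene of serum-starved fibroblasts, rose in both lines, by 1.99 ± 0.30 in KO (adjusted p = 0.00304) and by 2.18 ± 0.30 in rescue (adjusted p = 0.000257). Ccng2, a cyclin of resting cells, rose likewise, by 1.70 ± 0.35 in KO (adjusted p = 0.0116) and 2.27 ± 0.35 in rescue (adjusted p = 0.000534), and its KO call was lost under normexp (0.178). In KO cells 4 of 22 rose and 1 fell (10.5% of all genes were called), with 2 and 0 without day 3 and 1 and 0 under normexp. Ankrd1 and Ccn2, targets of the density-sensing YAP pathway, were lower in dense cells of both lines, Ankrd1 by -2.51 ± 0.35 in KO (adjusted p = 0.00229) and -3.01 ± 0.35 in rescue (adjusted p = 8.80e-05). Both KO calls were lost under normexp (0.0513 for Ankrd1 and 0.0741 for Ccn2). Of 23 measured genes of density sensing, 2 rose and 7 fell in KO cells, and 5 rose and 7 fell in rescue cells. Under normexp the counts were 0 and 0 in KO and 3 and 5 in rescue cells. Under spike-in scaling they were 22 and 0 in KO and 7 and 2 in rescue cells. Without day 3 they were 0 and 5 in KO and 2 and 6 in rescue cells.

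The genes whose levels ran closest to each inhibitor over the 12 arrays were ranked by Pearson correlation among 12437 other genes; the arrays share groups, so the values are descriptions. Among the genes nearest to Cdkn2b were Pxylp1 (0.992) and Aga (0.989). Cdkn2a was nearest to Gnpda1 (0.965), Neu1 (0.962) and Adh1 (0.962). Aga and Neu1 encode lysosomal enzymes. Cdkn2d was nearest to Ppan (0.989), a ribosome assembly factor gene, to Hpdl (0.986) and to Jagn1 (0.985). Cdkn1b was nearest to Arid3a (0.980), Lrp6 (0.972), a Wnt co-receptor gene, and Frmd5 (0.969). Cdkn1a was nearest to Pde4b (0.947), Il1r1 (0.945) and Loxl1 (0.939), and Cdkn2c to Tmem203 (0.909), Zadh2 (0.909) and AI597479 (0.890).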

How the data were processed

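Total RNA (100 ng) of 12 cultures was labelled with Cy3 and hybridised by the authors to single-colour Agilent mouse arrays. Per the file headers, Feature Extraction 10.5.1.1 made the scanner files, whose processed spot intensity is linear and has local background removed; nothing was normalised across arrays. A value table was also deposited, on a log2 scale with a normalisation not given in the sources used here; it served as an alternative, with and without its conflicting day 3.

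Flagged spots (79 to 265 per array) were set to missing, spots of a probe were averaged as log2, and the array's 75th percentile was subtracted. A probe entered the test if some group had it well above background in all 3 cultures (25931 of 41174). Probes were named by transcript through the supplied RefSeq gene table (GRCm38.p6), which gave 24375 probes 1 gene and left 16799 unnamed. limma 3.58.1 in R 4.3.3 fitted 4 group means over all arrays, with Benjamini-Hochberg adjustment within each of 5 comparisons. Genes of lists were read from their brightest kept probe (12438 genes). A lower bound compares the brighter group's mean with, per array, the higher of the lowest signal well above background and the dim probe's own. Scripts were tested on simulated data.

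The replicate number is the experimental day, which the labels name, so the numbers pair the arrays. Deviations of arrays of the same day correlated above 0.1 in 11 of 18 pairs (-0.04 to 0.29). There were 5 slides. Each line's dense and sparse arrays of a day were on 1 slide, and slide 3 (day 2) alone carried both lines. A fit blocked by slide therefore takes from slide 3 the line difference averaged over dense and sparse seeding. How that difference splits between the densities draws on all 5 slides, so blocked values can depart from those on slide 3.

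Members, lists and tests were chosen with earlier results of these data known. Named genes were all member probes, Ptk2, Trp53, Foxo3, Skp2, Myc, Rb1 and Mtap, and, per list, from the 3 called genes of largest change and the largest opposite one; the 3 nearest genes of each member were named too, except 1 that is not reported here. The rescue value of Gas1 lies outside that rule and was added after its value was seen. Alternatives changed background correction (normexp, on median in place of mean spot signals), scaling, filter, blocks, variance model, probe choice, groups and single arrays.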

Additional observations from a re-analysis of the deposited data

Results flagged for a closer look

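For 3 member genes the density response differed between the lines, by the interaction term of limma with Benjamini-Hochberg adjustment over 25931 probes. Cdkn1b (brighter probe) differed by -1.40 ± 0.29 (KO minus rescue, SE, adjusted p = 0.00713): it was lower on all 3 days in dense than in sparse KO cells and higher on all 3 days in dense than in sparse rescue cells. The dimmer Cdkn1b probe was not called (-1.26 ± 0.52, adjusted p = 0.120), and its day 3 difference in rescue cells was -0.46. Cdkn2a differed by -1.42 ± 0.30 (adjusted p = 0.00919), with a response in rescue cells on all 3 days. Cdkn2b differed by -1.24 ± 0.31 (adjusted p = 0.0183), with a larger response in rescue than in KO cells on all 3 days. Each of the 3 calls was lost under normexp background correction, where 1.99% of all probes were called, and that of Cdkn2b under median scaling. Those of Cdkn2a and Cdkn2b were lost without the arrays of day 3, at values of -1.33 and -1.42, where 6.2% of all probes were called. Spike-in scaling turned all 3 signs, to 0.94 for Cdkn1b, 0.93 for Cdkn2a and 1.11 for Cdkn2b, none of them called.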

How the results depend on the processing

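Besides the results as reported (2, 4, 4, 5 and 3 member probes and 32, 109, 132, 88 and 65 list genes called in KO density, rescue density, dense lines, sparse lines and the interaction), the alternatives below were run. Normexp gave 0 member probes in KO density, 2 in sparse lines and 0 in the interaction, and 1 list gene in KO density, 69 in rescue density, 51 in sparse lines and 27 in the interaction. Of all probes, normexp called 0.15% in KO density, 11.6% in rescue density, 19.1% in sparse lines and 1.99% in the interaction. Spike-in scaling gave 7 member probes in KO density, and 199 list genes there, 65 in rescue density, 144 in sparse lines and 177 in the interaction. Of all probes, it called 99.3% in KO density, 23.8% in rescue density, 68.3% in sparse lines and 81.1% in the interaction. It turned the sign of Cdkn1b (2.37 and 2.29 for its 2 probes), Cdkn2a (2.97) and Cdkn2d (2.57) in KO density, of Cdkn1b (dimmer probe, -0.0879), Cdkn2a (-1.48) and Cdkn2d (-1.08) in sparse lines, and of Cdkn1b (0.94), Cdkn2a (0.93), Cdkn2b (1.11) and Cdkn2c (2.32) in the interaction. Uncalled values that it also turned were those of Cdkn1a in rescue density (0.55), of Cdkn1a (0.63) and Cdkn2c (0.57) in dense lines and of the dimmer Cdkn1b probe in the interaction (1.09); this follows from the constant that it adds. The deposited value table as labelled gave 0 calls for members and lists in all 5 comparisons by limma, with 2228, 1927, 183, 294 and 100 of 27572 probes at an unadjusted p under 0.05. Without day 3, an alternative chosen after seeing the data, it gave 0 member probes in KO density and 1 in the interaction, and 39 list genes in the interaction. Of all its probes, 4.87% were called in KO density and 6.62% in the interaction. The scanner arrays without day 3, likewise added, gave 0 member probes and 18 list genes in KO density and 1 member probe and 32 list genes in the interaction, from fewer arrays. They gave calls for 4.64% of all probes in KO density and 6.2% in the interaction. In KO density 1 member probe under normexp, 3 in either fit without day 3 and 4 under no filter or either block had an unadjusted p under 0.05, and 3 under normexp in the interaction. No filter on dim probes gave 0 member probes and 21 list genes in KO density, where 5.07% of all probes were called. The day as a replicate block gave 0 member probes in KO density, where 13.9% of all probes were called, and changed no other call of a member. The slide as a block gave 0 member probes in KO density (11.6% of all probes) and 2 in sparse lines (31.1%), with 55 list genes in sparse lines. Only the 2 groups compared gave 1 member probe in KO density (11.9% of all probes). Leaving out each array in turn gave 0 to 2 member probes and 15 to 35 list genes in KO density, and 3 to 5, 3 to 4, 4 to 5 and 3 to 4 member probes in the other comparisons. Where no construction is named, the cause was not tested. Signals near background limit Cdkn1c and the dimmer Cdkn1b probe.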
